A study of Mus musculus with 12 samples.

Results

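Cartilage that is about to be replaced by bone has to be calcified and opened up, and 10 genes that carry out these last steps were followed in the hypertrophic zone of the mouse tibial growth plate. The genes were chosen by symbol: the collagenase gene Mmp13, the matrix phosphoprotein genes Ibsp, Spp1 and Dmp1, the phosphatase genes Alpl and Phospho1, the pyrophosphate-making enzyme gene Enpp1, the phosphate regulators Phex and Slc20a1, and the bone Gla protein gene Bglap. A probe was a member where the platform annotation named 1 of these genes and its detection score, 1 minus the detection p against the negative control beads, was above 0.95 on at least 3 of the 12 arrays. By this rule 7 probes of 6 genes were members, out of 12023 tested probes among the 45281 of the deposited table. The tested probes with 1 symbol name 7642 genes in all. Mmp13 had 2 probes, and Ibsp, Alpl, Phospho1, Phex and Bglap had 1 each. Of the 4 genes without a member probe, Spp1, Dmp1 and Slc20a1 were not analysed here, and Enpp1 is described apart from the others because its 2 probes carried that name only in a gene list of the study itself.

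Mineral in growth plate cartilage begins in matrix vesicles, small membrane sacs shed by hypertrophic chondrocytes. Phosphatases on and inside the vesicles release phosphate and break down pyrophosphate, a strong inhibitor of crystal growth that ENPP1 produces outside the cell, and acidic phosphoproteins such as bone sialoprotein then seed and steer the crystals. The last hypertrophic chondrocytes, next to the invading vessels and the first osteoblasts, also secrete the collagenase MMP13, so most of these genes are shared by terminal chondrocytes and bone-forming cells.

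The hypertrophic zones came from mice of 4 genotypes on a mixed background, all 2 weeks old, with 3 mice per genotype and 1 array per mouse. ColXN617K mice were homozygous for a knock-in that substitutes 1 amino acid of collagen X, the short-chain collagen of hypertrophic chondrocytes, and model a human metaphyseal chondrodysplasia in which the misfolded chain stresses the endoplasmic reticulum. In Xbp1CartΔEx2 mice, exon 2 of Xbp1, which encodes a transcription factor of the unfolded protein response, was removed by Cre recombinase in cells that express Col2a1, so cells of other lineages in the dissected tissue kept the gene. C/X mice carried both changes, and Wt mice carried neither. The zones were cut from frozen sections under a microscope with a scalpel and their RNA was amplified linearly before labelling, so each value is an average over whatever cells the dissected zone held. The design asks how mutant collagen X moves these genes, and whether XBP1 is needed for it.

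Values are log2 intensities after background correction and quantile normalization of all arrays together. A probe was called where groups differed at least 2-fold with an adjusted p of 0.01 or less in limma (Benjamini-Hochberg over all 12023 tested probes). The share of probes detected was 17.2% to 24.4% on C/X arrays, 17.1% to 28.4% on ColXN617K arrays, 19.6% to 23.1% on Xbp1CartΔEx2 arrays and 17.3% to 17.7% on Wt arrays. Replicate 3 of C/X and replicate 3 of ColXN617K stood apart from the others of their genotype, with the lowest detected share of each, and the main results are given with and without this pair. The probe for Col10a1, the collagen X gene, averaged 8.98 in C/X, 8.90 in ColXN617K, 11.68 in Xbp1CartΔEx2 and 12.06 in Wt zones. The Xbp1 probe averaged 10.77 in C/X, 11.60 in ColXN617K, 10.91 in Xbp1CartΔEx2 and 10.73 in Wt zones. Where the Xbp1 probe lies relative to exon 2 was not determined, so it does not check the deletion, and a knock-in need not lower Col10a1.

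The promoters of the 3 genes that carried the results, 250 bases before to 50 bases after the start of a transcript in RefSeq (build GRCm38.p6, 5′ to 3′ on the strand of the gene), are shown because the expression of all 3 moved with the collagen X genotype. Capitals mark matches on either strand to 4 motifs. The RUNX core, bound by regulators of chondrocyte and osteoblast maturation, was searched as ACCNCA. The AP-1 site was searched as TGANTCA. The C/EBP site was searched as TTGCNNAA. The TATA box was searched as TATAAA. Mmp13 lies at chr9:7272264-7272563 (plus strand), Ibsp at chr5:104299037-104299336 (plus strand), and the upstream and downstream first exons of Alpl at chr4:137796335-137796634 and chr4:137766426-137766725 (minus strand).
Mmp13: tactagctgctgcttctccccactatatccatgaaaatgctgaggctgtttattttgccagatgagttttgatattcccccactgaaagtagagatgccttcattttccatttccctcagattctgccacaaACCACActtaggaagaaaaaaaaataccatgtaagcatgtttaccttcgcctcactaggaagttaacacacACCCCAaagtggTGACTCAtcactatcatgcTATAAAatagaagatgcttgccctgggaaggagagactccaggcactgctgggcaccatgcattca
Ibsp: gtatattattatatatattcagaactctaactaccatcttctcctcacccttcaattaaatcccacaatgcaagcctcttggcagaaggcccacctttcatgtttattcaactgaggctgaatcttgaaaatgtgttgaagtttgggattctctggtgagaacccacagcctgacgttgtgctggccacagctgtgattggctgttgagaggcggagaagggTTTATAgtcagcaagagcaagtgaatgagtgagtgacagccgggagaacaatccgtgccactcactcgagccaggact
Alpl, upstream start: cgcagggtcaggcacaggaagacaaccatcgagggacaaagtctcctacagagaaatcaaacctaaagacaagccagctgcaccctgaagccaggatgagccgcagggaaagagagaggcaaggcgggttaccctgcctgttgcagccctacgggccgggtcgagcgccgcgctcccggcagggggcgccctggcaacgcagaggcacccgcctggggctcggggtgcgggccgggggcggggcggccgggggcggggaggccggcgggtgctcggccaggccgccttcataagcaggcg
Alpl, downstream start: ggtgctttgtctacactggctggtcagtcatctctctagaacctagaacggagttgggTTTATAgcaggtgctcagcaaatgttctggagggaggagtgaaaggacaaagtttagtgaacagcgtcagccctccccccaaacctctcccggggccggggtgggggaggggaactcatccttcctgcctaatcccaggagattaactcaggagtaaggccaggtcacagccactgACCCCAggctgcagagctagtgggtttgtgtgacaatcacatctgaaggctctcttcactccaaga
In the Mmp13 window the RUNX letters stand at -118 and -47 (first base, with -1 just before the start), the AP-1 letters at -35 and the TATA letters at -16, with no overlap between them. Ibsp holds the TATA letters alone, on the opposite strand at -28. The upstream Alpl window holds none of the 4 motifs, and the downstream one holds RUNX letters at -16 and reverse TATA letters at -192. Among all 32851 promoter windows of the same length, 45.8% hold the RUNX letters, 7.81% the AP-1 letters, 10.8% the C/EBP letters and 13.6% the TATA letters, so the RUNX letters are common and the AP-1 letters are not. A match describes these letters only.

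**Figure D1:**
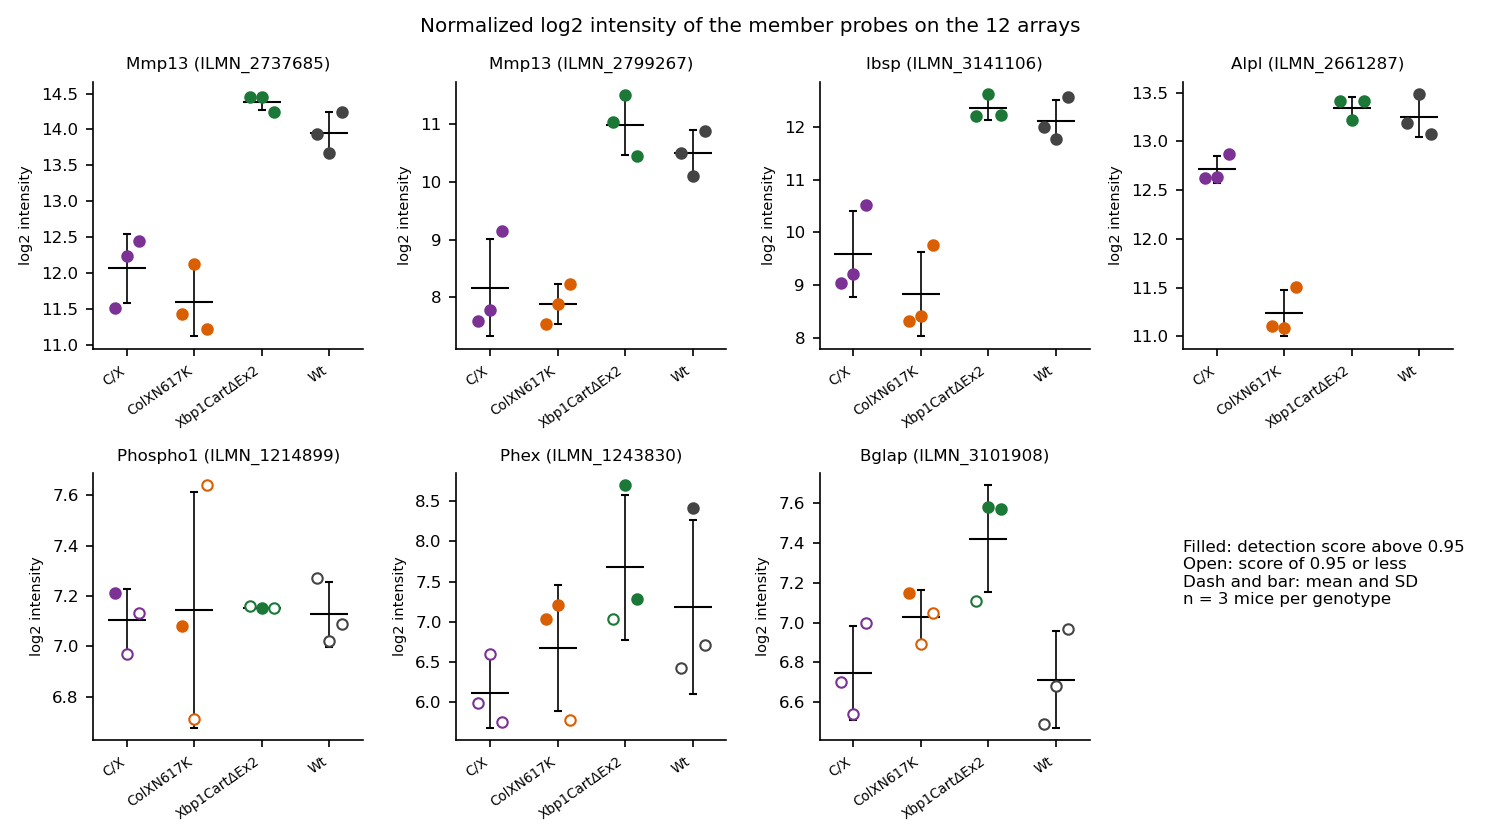
Normalized log2 intensity (y axis, own range in each panel) of the 7 member probes by genotype (x axis), with 1 point per mouse, filled where the detection score was above 0.95, and the mean and SD of 3 mice. Both Mmp13 probes, Ibsp and Alpl separate the ColXN617K arrays from the Wt arrays, and Alpl is the 1 member for which the C/X arrays overlap neither of them; Phospho1, Phex and Bglap lie near the detection limit.

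Mmp13 and Ibsp were called lower in both genotypes with mutant collagen X, and Alpl in ColXN617K zones. In ColXN617K against Wt zones, 4 of the 7 member probes, of Mmp13, Ibsp and Alpl, were called lower and 0 higher, where 7.16% of all tested probes were called lower and 14.5% in either direction. The arrays of both genotypes did not overlap for 4 of the 7 member probes, against 40.8% of all tested probes. In C/X against Wt zones 3 of 7 were called lower, both probes of Mmp13 and Ibsp, against 5.21% of all tested probes called lower and 11.7% in either direction, and 4 of 7 did not overlap against 43.6%. These 3 probes were lower in both comparisons, as were 3.24% of all tested probes, and the comparisons share the Wt arrays. With XBP1 missing in both genotypes, C/X against Xbp1CartΔEx2 zones, the same 3 probes were called lower, against 7.6% of all tested probes called lower and 13.7% in either direction, and 6 of 7 did not overlap, against 44.3%. That comparison shares no array with ColXN617K against Wt. When arrays were scaled by their medians instead, the median of all tested probes moved by 0.77 on the log2 scale in ColXN617K against Wt zones, 87.9% of the called probes were higher in place of 50.5%, and Ibsp alone of the 3 genes stayed called. With that scaling Ibsp alone was called in C/X against Wt zones too, and Ibsp and the dimmer Mmp13 probe in C/X against Xbp1CartΔEx2 zones. Relative to that shift the differences were -2.57 and -2.54 for the Mmp13 probes, -3.27 for Ibsp and -2.05 for Alpl. In bulk tissue, fewer cells that express a gene and less of its RNA per cell cannot be told apart.

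MMP13 cleaves the collagen II network of the last hypertrophic rows and marks the terminal chondrocyte as well as the osteoblast. Its brighter probe, ILMN_2737685, read 11.52, 12.24 and 12.44 in C/X zones, 11.43, 12.13 and 11.22 in ColXN617K zones, 14.45, 14.45 and 14.25 in Xbp1CartΔEx2 zones, and 13.93, 13.67 and 14.25 in Wt zones. All 6 arrays with mutant collagen X were lower than all 6 without it. The fall was 5.13-fold in ColXN617K against Wt zones (log2 difference -2.36, SE 0.29, 95% interval -2.99 to -1.73, adjusted p = 1.08e-04, limma). It was 3.69-fold in C/X against Wt zones (adjusted p = 6.47e-04) and 4.98-fold in C/X against Xbp1CartΔEx2 zones (adjusted p = 1.32e-04). The collagen X effect with and without XBP1 differed by 0.04 on the log2 scale (SE 0.41, 95% interval -0.85 to 0.93, adjusted p = 0.961), an interval that still allows a difference of nearly 2-fold either way. The sign of that difference, and of the C/X against ColXN617K difference of 0.47 (95% interval -0.16 to 1.11), turned when the arrays were scaled by their medians. Relative to the median of all tested probes with that scaling, these differences were 0.23 and 0.21.

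The dimmer Mmp13 probe, ILMN_2799267, gave the same order of genotypes. It read 7.59, 7.77 and 9.14 in C/X zones, 7.53, 7.89 and 8.23 in ColXN617K zones, 11.03, 11.51 and 10.44 in Xbp1CartΔEx2 zones, and 10.50, 10.10 and 10.89 in Wt zones. The mutant collagen X arrays lay below the others again, with C/X replicate 3 the highest of them. The falls were 6.13-fold in ColXN617K against Wt zones (adjusted p = 4.99e-04), 5.04-fold in C/X against Wt zones (0.00138) and 7.10-fold in C/X against Xbp1CartΔEx2 zones (3.24e-04). Without replicate 3 of ColXN617K and of C/X, the log2 difference from Wt was -2.79 in ColXN617K and -2.82 in C/X zones for this probe, and -2.17 in ColXN617K and -2.07 in C/X zones for the brighter one.

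Ibsp encodes bone sialoprotein, an acidic phosphoprotein that nucleates hydroxyapatite. Its probe, ILMN_3141106, read 9.03, 9.21 and 10.53 in C/X zones, 8.31, 8.42 and 9.76 in ColXN617K zones, 12.22, 12.64 and 12.24 in Xbp1CartΔEx2 zones, and 12.01, 11.78 and 12.57 in Wt zones. The arrays with mutant collagen X did not reach those without it, and in both of those genotypes replicate 3 was the highest. Ibsp had the largest fall of the members, 9.77-fold in ColXN617K against Wt zones (log2 difference -3.29, SE 0.44, adjusted p = 1.78e-04). It fell 5.76-fold in C/X against Wt zones (adjusted p = 0.00137) and 6.86-fold in C/X against Xbp1CartΔEx2 zones (adjusted p = 6.23e-04). With the replicate number of the descriptions as a block both C/X calls were lost (adjusted p = 0.0320 against Wt and 0.0106 against Xbp1CartΔEx2), and with no filter on detection that against Wt was (0.0103). C/X exceeded ColXN617K by 0.76 on the log2 scale without passing the test (95% interval -0.19 to 1.71, adjusted p = 0.282). Arrays of these 2 genotypes with the same number in their titles deviated together, though C/X replicate 1 and ColXN617K replicate 2 did so too (r of 0.432). In a fit of these 6 arrays with that number as a block, added after the data were seen, the adjusted p was 0.0216 for the same difference. Without the replicate 3 pair, Ibsp differed by -3.75 in ColXN617K and by -3.00 in C/X zones from Wt on the log2 scale.

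Alpl, the gene of tissue-nonspecific alkaline phosphatase, which hydrolyses pyrophosphate at the surface of matrix vesicles, followed a different course. Its probe, ILMN_2661287, read 12.63, 12.64 and 12.87 in C/X zones, 11.11, 11.09 and 11.51 in ColXN617K zones, 13.41, 13.22 and 13.41 in Xbp1CartΔEx2 zones, and 13.19, 13.49 and 13.08 in Wt zones. The 3 ColXN617K arrays were the lowest, the 3 C/X arrays formed a middle level that overlapped neither neighbour, and Xbp1CartΔEx2 and Wt arrays overlapped. Alpl fell 4.04-fold in ColXN617K against Wt zones (log2 difference -2.01, SE 0.20, 95% interval -2.44 to -1.59, adjusted p = 2.13e-05). In C/X zones the difference from Wt was -0.54 (95% interval -0.96 to -0.12, adjusted p = 0.0609) and that from Xbp1CartΔEx2 was -0.63 (95% interval -1.06 to -0.21, adjusted p = 0.0302), neither of which was called.

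Alpl was 2.78-fold higher in C/X than in ColXN617K zones (log2 difference 1.47, 95% interval 1.05 to 1.90, adjusted p = 6.47e-04). The call was lost with the spread taken from these 2 genotypes alone (adjusted p = 0.0187) and with scaling by array medians (0.86, adjusted p = 0.224), and it was kept in the fit of their 6 arrays with the title number as a block (adjusted p = 0.00691). With median scaling all tested probes had a median of -0.30 in this comparison, and Alpl relative to it was 1.16, a value that was not tested. Alpl was the 1 member of 7 called in this comparison, and the 1 of 7 that did not overlap, where 3.34% of all tested probes were called higher, 5.26% in either direction, and 30.1% did not overlap. In that fit with the block, 419 probes were called in place of 633. A probe that was called lower in ColXN617K against Wt and higher in C/X against ColXN617K was found 171 times, or 1.42% of all tested probes. The difference of the collagen X effect with and without XBP1 was 1.38 on the log2 scale (SE 0.28, 95% interval 0.78 to 1.98), with an adjusted p of 0.0128 that missed the threshold of 0.01. Of the members 0 were called for this difference and 2 of 7 had an unadjusted p under 0.05, against 1.71% of all tested probes called and 24.1% with an unadjusted p under 0.05. Scaling by array medians left a difference of 0.57 (adjusted p = 0.485) for Alpl, where the median of all tested probes was -0.73. Relative to that median it was 1.29, which was not tested. The Alpl difference was called without the replicate 3 pair (1.44, adjusted p = 0.00313) and without ColXN617K replicate 3 alone (1.52, adjusted p = 0.00318). Setting Alpl beside Mmp13 and Ibsp, the interval for Alpl lies above 0 while those for both Mmp13 probes and Ibsp include 0, and no test was made of 1 gene against another.

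**Figure D2:**
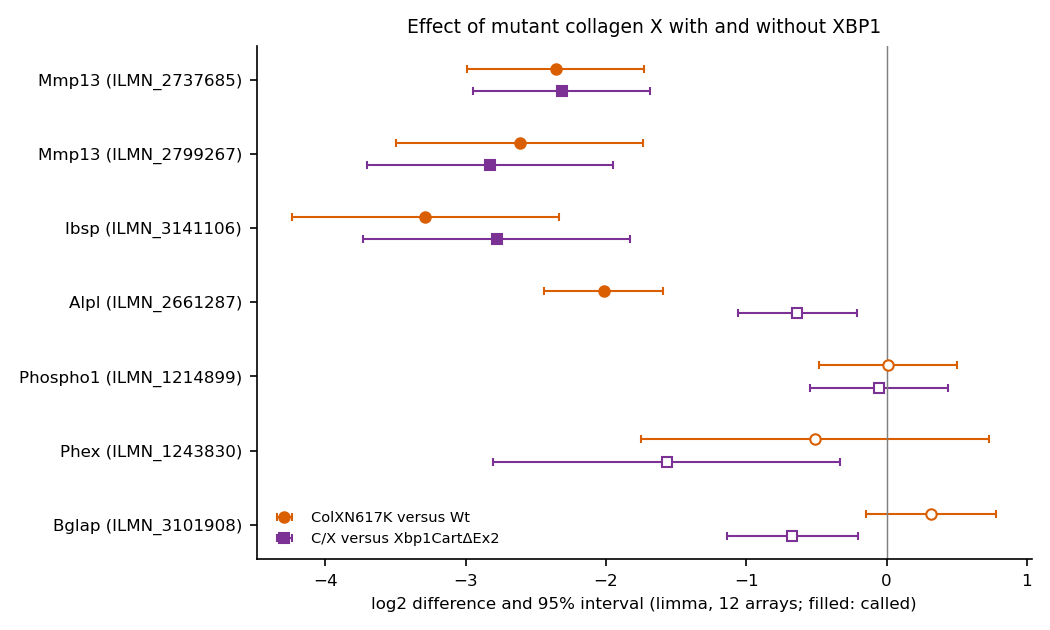
Log2 difference and 95% interval (x axis) of each member probe (rows) for mutant collagen X with XBP1 present (circles, ColXN617K versus Wt) and with XBP1 deleted (squares, C/X versus Xbp1CartΔEx2), from limma over 12 arrays, filled where called. For both Mmp13 probes and Ibsp the 2 intervals overlap; for Alpl they lie apart, around -2.01 and -0.63.

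Loss of XBP1 alone moved none of the 7 member probes past the criteria. Enpp1, which had no member probe, was higher there and is described further below. In Xbp1CartΔEx2 against Wt zones 0 of 7 member probes were called in limma and 1 of 7, the Bglap probe, had an unadjusted p under 0.05, where 1.76% of all tested probes were called and 22.9% had an unadjusted p under 0.05. The log2 differences were 0.43 (95% interval -0.20 to 1.06) and 0.50 (-0.38 to 1.37) for the Mmp13 probes, 0.25 (-0.70 to 1.20) for Ibsp and 0.09 (-0.33 to 0.52) for Alpl. The upper bounds leave room for a rise of more than 2-fold in Mmp13 and Ibsp, and the interval for Alpl does not. The Bglap arrays of Xbp1CartΔEx2 and Wt did not overlap, as was true of 36.7% of all tested probes.

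Phospho1, Phex and Bglap were close to the detection limit, so their values bound more than they measure. PHOSPHO1 frees phosphate inside matrix vesicles. Its probe, ILMN_1214899, was detected on 1 C/X, 1 ColXN617K, 1 Xbp1CartΔEx2 and 0 Wt arrays, and all 12 readings lay between 6.71 and 7.64 with overlap between every pair of genotypes.

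Phex encodes an endopeptidase of osteoblasts and odontoblasts whose loss causes phosphate wasting. Its probe, ILMN_1243830, read 5.99, 6.60 and 5.76 in C/X zones, 7.04, 7.21 and 5.78 in ColXN617K zones, 7.04, 8.70 and 7.29 in Xbp1CartΔEx2 zones, and 6.43, 8.42 and 6.71 in Wt zones. It was detected on 0 C/X, 2 ColXN617K, 2 Xbp1CartΔEx2 and 1 Wt arrays, and C/X and Xbp1CartΔEx2 arrays did not overlap. Since C/X was not above background on any array, Phex was at least 1.31-fold lower there than in Xbp1CartΔEx2 zones (adjusted p = 0.0607, not called). Without Xbp1CartΔEx2 replicate 2, the highest of all, no bound is left. A bound of this kind sets the mean of the brighter genotype against, on each array of the dimmer one, the higher of the probe's own reading and the lowest reading of a detected probe. It holds for the observed means only and carries no sampling error, and an adjusted p beside it is that of limma for a difference of 0.

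Bglap encodes osteocalcin, the calcium-binding Gla protein of mature osteoblasts. Its probe, ILMN_3101908, read 6.70, 6.54 and 7.0 in C/X zones, 7.15, 6.89 and 7.05 in ColXN617K zones, 7.11, 7.58 and 7.57 in Xbp1CartΔEx2 zones, and 6.49, 6.68 and 6.97 in Wt zones. It was detected on 1 ColXN617K and 2 Xbp1CartΔEx2 arrays, and the Xbp1CartΔEx2 arrays were the highest of their own comparisons with C/X and Wt. It was at least 1.09-fold lower in C/X than in Xbp1CartΔEx2 zones (adjusted p = 0.0355, not called), and the difference from Wt allows no bound (adjusted p = 0.0689).

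The gene next to it in the bone Gla family, Bglap2, is almost identical in sequence, and the signal of either probe may come in part from its copies. The Bglap2 probe was detected on all 12 arrays and read 9.0, 9.99 and 10.65 in C/X zones, 11.07, 9.47 and 11.22 in ColXN617K zones, 11.42, 13.37 and 12.67 in Xbp1CartΔEx2 zones, and 10.29, 9.58 and 9.76 in Wt zones. Xbp1CartΔEx2 was highest, with no overlap with the others. It was 6.09-fold lower in C/X than in Xbp1CartΔEx2 zones (log2 difference -2.61, SE 0.57, adjusted p = 0.00485). That call was lost without C/X replicate 1 (-2.17, adjusted p = 0.0269), C/X replicate 2 (-2.66, 0.0151), Xbp1CartΔEx2 replicate 2 (-2.16, 0.0257) or Xbp1CartΔEx2 replicate 3 (-2.51, 0.0228), and with median scaling, no filter or the block by description number (adjusted p of 0.0205, 0.0330 and 0.0430). Against Wt, Xbp1CartΔEx2 was higher by 2.60 on the log2 scale, which missed the threshold (adjusted p = 0.0172) and passed it without the replicate 3 pair (adjusted p = 0.00621).

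ENPP1 makes the pyrophosphate that alkaline phosphatase removes. The study listed Enpp1 among genes that it selected on these arrays for differing between Xbp1CartΔEx2 and Wt, so that difference is given as a description without a test. The dimmer probe, ILMN_1231851, read 6.95, 6.89 and 6.63 in C/X zones, 6.99, 7.46 and 6.59 in ColXN617K zones, 9.56, 9.04 and 9.60 in Xbp1CartΔEx2 zones, and 6.53, 6.49 and 6.58 in Wt zones. It was detected on all 3 Xbp1CartΔEx2 arrays, on 2 ColXN617K arrays and on 0 C/X and 0 Wt arrays, so its level in Xbp1CartΔEx2 was at least 3.38-fold that in Wt. The brighter probe, ILMN_2782964, read 8.71, 8.63 and 8.93 in C/X zones, 8.54, 8.81 and 8.18 in ColXN617K zones, 10.53, 10.13 and 10.30 in Xbp1CartΔEx2 zones, and 9.02, 9.36 and 9.11 in Wt zones.

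Both Enpp1 probes were thus highest in the zones that lacked XBP1 and carried normal collagen X, and C/X arrays, which also lacked XBP1, overlapped the ColXN617K arrays. The C/X against ColXN617K comparison shares no array with the one on which the gene was chosen. There the brighter probe differed by 0.24 on the log2 scale (95% interval -0.22 to 0.71, adjusted p = 0.507) and the dimmer one by -0.19 (95% interval -0.71 to 0.33, adjusted p = 0.678). The first turned to -0.21 when the arrays were scaled by their medians (0.086 relative to the median of all tested probes), and the second to 0.03 without ColXN617K replicate 2.

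**Figure D3:**
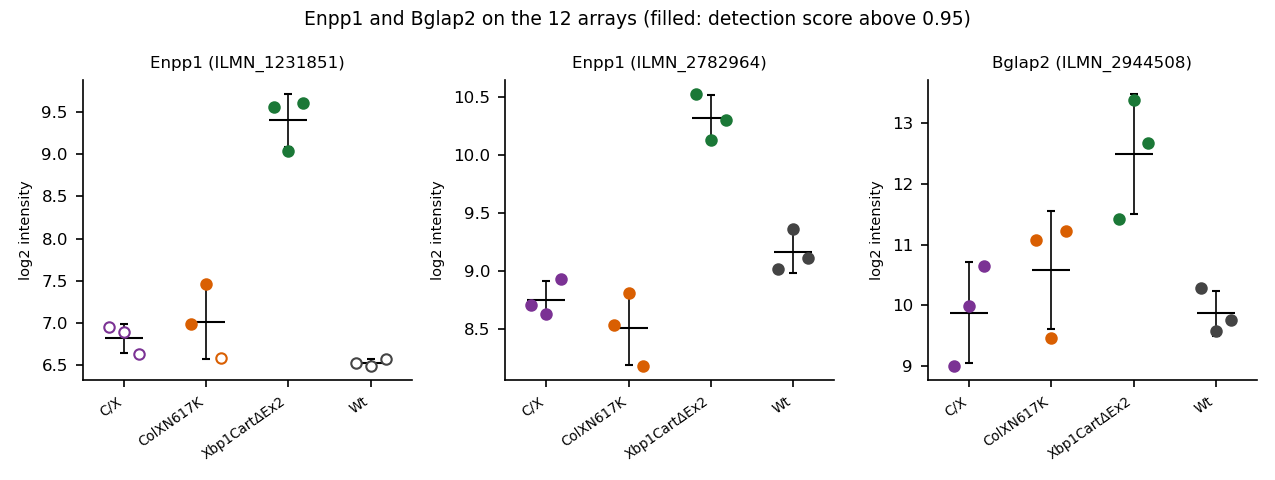
Normalized log2 intensity (y axis, own range in each panel) of the 2 Enpp1 probes and the Bglap2 probe by genotype (x axis), 1 point per mouse, filled where the detection score was above 0.95, with the mean and SD of 3 mice. Xbp1CartΔEx2 arrays are the highest for each probe, at 10.13 to 10.53 for the brighter Enpp1 probe.

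The members differed in how closely they followed each other over the 12 arrays, which hold 4 genotypes and share 1 normalization. The dimmer Mmp13 probe and Ibsp had a Pearson r of 0.979, and of 0.858 for deviations from the genotype means. The brighter Mmp13 probe and Ibsp had 0.933 and 0.196, and the pair of Mmp13 probes 0.957 and 0.516. Among 7636 other genes, the patterns most like that of the brighter Mmp13 probe were those of Emcn, an endothelial sialomucin, at 0.984, of St6gal1 at 0.982 and of Rai14 at 0.981. For Ibsp they were Ece1, the endothelin-converting enzyme, at 0.988, Arap3 at 0.984 and Cemip, a hyaluronan-degrading protein, at 0.984. For Alpl they were Pcsk6, a proprotein convertase, at 0.978, Plekha5 at 0.973 and Chic2 at 0.972.

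Other genes of mineralization were taken from lists by symbol. Of 16 genes that handle phosphate and pyrophosphate, 6 were measured. In ColXN617K against Wt zones 0 of 6 were called (median log2 difference -0.39, against 0.00 over all tested probes). Nt5e, which makes adenosine from AMP at the cell surface, was 2.55-fold higher in C/X than in Wt zones (adjusted p = 0.00590). Its means were 11.30 in C/X, 11.11 in ColXN617K, 10.09 in Xbp1CartΔEx2 and 9.95 in Wt zones. The call was lost in 7 of the 12 fits that left out 1 array (limma, adjusted p up to 0.0287). Enpp6, a choline-specific phosphodiesterase, was 4.78-fold higher in Xbp1CartΔEx2 than in Wt zones (adjusted p = 0.00318) and 7.71-fold lower in C/X than in Xbp1CartΔEx2 zones. Ank, the pyrophosphate exporter, was 3.14-fold lower in C/X than in Xbp1CartΔEx2 zones (adjusted p = 6.69e-04). It averaged 9.12 in C/X, 9.26 in ColXN617K, 10.76 in Xbp1CartΔEx2 and 9.58 in Wt zones. In C/X against Xbp1CartΔEx2 zones 2 of the 6 fell and 1, Nt5e, rose.

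Mgp encodes matrix Gla protein, a secreted inhibitor of calcification. Its log2 difference was -3.78 in ColXN617K against Wt zones, -3.11 in C/X against Wt and -3.40 in C/X against Xbp1CartΔEx2 zones, each called. Among 10 measured of 14 matrix vesicle and inhibitor genes, Mgp was the 1 called in ColXN617K against Wt zones. The phosphate-regulating hormone gene Stc2 rose in C/X zones by 1.26 on the log2 scale against Wt. It averaged 12.65 in C/X, 12.35 in ColXN617K, 11.36 in Xbp1CartΔEx2 and 11.40 in Wt zones. Tnfrsf11b, the osteoclast inhibitor osteoprotegerin, differed by -1.70 in C/X against Xbp1CartΔEx2 zones. Its means were 8.32 in C/X, 8.66 in ColXN617K, 10.02 in Xbp1CartΔEx2 and 8.74 in Wt zones. In Xbp1CartΔEx2 against Wt and in C/X against ColXN617K zones 0 of the 10 were called.

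Of 23 regulators of terminal hypertrophy, 12 were measured, and 4 fell and 1 rose in ColXN617K against Wt zones (median -0.67, against 0.00). The vitamin D receptor gene Vdr differed by -2.64 on the log2 scale, the hedgehog ligand gene Ihh by -2.51 and the parathyroid hormone receptor gene Pth1r by -1.55, and Cebpb, a stress-responsive transcription factor gene, rose by 1.37. In C/X against Wt zones Ihh (-2.62), the homeobox gene Dlx3 (-2.27) and Vdr (-1.83) fell and Cebpb (1.65) rose. In C/X against Xbp1CartΔEx2 zones 3 fell, Dlx3, Vdr and Ihh, and Cebpb rose. Dlx3 and the forkhead gene Foxa3 were lower in C/X than in ColXN617K zones, by 2.74-fold and 2.22-fold. The Dlx3 call was lost in 9 of the 12 fits that left out 1 array (adjusted p up to 0.0248) and in 6 of 14 other settings, and its log2 difference of -1.45 was -0.92 without the replicate 3 pair. The Foxa3 call was lost in 4 of the 12 (adjusted p up to 0.0199) and in 3 of the 14. In ColXN617K against Wt zones the Pth1r call was lost in 8 of the 12 (limma, adjusted p up to 0.0321) and the Cebpb call in 5 (up to 0.0261). In Xbp1CartΔEx2 against Wt zones 0 of 12 were called.

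Matrix-degrading enzymes other than Mmp13 were lower in part. Of 14 measured of 21, 4 fell and 1 rose in ColXN617K against Wt zones. Mmp10 (stromelysin 2, not above background in ColXN617K) was at least 3.05-fold lower (adjusted p = 8.61e-06), Mmp14, the membrane-bound activator of other metalloproteinases, differed by -2.33, the gelatinase gene Mmp9 by -2.03 and the osteoclast protease gene Ctsk by -1.38 on the log2 scale. In C/X against Wt zones Mmp10 was at least 2.85-fold lower, and the serine protease gene Htra1 (1.75) and Mmp11 (1.60) rose. In C/X against Xbp1CartΔEx2 zones 6 fell and 1 rose, led by Adamts9 (at least 3.76-fold lower), Mmp10 (at least 3.35-fold lower), Mmp2 (-1.94) and Mmp14 (-1.94). Mmp11 was higher in C/X than in ColXN617K zones by 2.57 on the log2 scale, the 1 gene of 14 called there, and in Xbp1CartΔEx2 against Wt zones 0 were called.

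Phosphoproteins such as bone sialoprotein are phosphorylated in the secretory pathway by FAM20C. Its gene, like Alpl, was lower in ColXN617K than in Wt zones and higher in C/X than in ColXN617K zones. Fam20c differed by -3.30 on the log2 scale in ColXN617K against Wt zones and by -2.02 in C/X against Xbp1CartΔEx2 zones, and was higher in C/X than in ColXN617K zones by 2.17 (adjusted p = 0.00222, and 0.0106, no longer called, in the fit of those 6 arrays with the block by title number). Fam20a, an activating partner of FAM20C, differed by -2.24 in ColXN617K against Wt, -1.78 in C/X against Wt and -2.84 in C/X against Xbp1CartΔEx2 zones. With the xylose kinase gene Fam20b and the Gla protein genes Pros1, Gas6 and Bglap2, 6 of 9 genes were measured. Of these, 3 fell in ColXN617K against Wt zones, including Pros1 (-1.50), 2 in C/X against Wt zones, including Fam20b (-1.03), and 4 in C/X against Xbp1CartΔEx2 zones, including Gas6 (-1.84). In Xbp1CartΔEx2 against Wt zones 0 of 6 were called. Gas6 averaged 7.23 in C/X, 7.06 in ColXN617K, 9.07 in Xbp1CartΔEx2 and 7.62 in Wt zones. The Pros1 call was lost in 8 of the 12 fits that left out 1 array (limma, adjusted p up to 0.0384).

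Of the cells that border the hypertrophic zone, most endothelial markers fell in both genotypes with mutant collagen X. A smaller share of the osteoclast and osteoblast markers did, above all in C/X against Wt zones. Of 8 measured of 12 endothelial markers, 7 fell in ColXN617K against Wt, 7 in C/X against Wt and 8 in C/X against Xbp1CartΔEx2 zones. Pecam1, 1 of these 8, was also higher in Xbp1CartΔEx2 than in Wt zones, at least 2.14-fold. It was detected on Xbp1CartΔEx2 arrays only and was tested only because it is high there. Its differences from that genotype are therefore a description. The summed normalized intensity of the 8 markers was 1024 to 3386 in C/X, 1101 to 1391 in ColXN617K, 14995 to 26788 in Xbp1CartΔEx2 and 6045 to 14397 in Wt zones. Pecam1 and Cdh5 were not above background on any C/X or ColXN617K array, and Pecam1 was not on any Wt array either. Of 5 measured of 12 osteoclast markers, 3 fell in ColXN617K against Wt, 1 in C/X against Wt and 3 in C/X against Xbp1CartΔEx2 zones. Their sum was 8454 to 22745 in C/X, 6683 to 11008 in ColXN617K, 31865 to 37644 in Xbp1CartΔEx2 and 24670.5 to 34504 in Wt zones. Acp5, which defines osteoclasts, was not above background on any C/X or ColXN617K array and was at least 3.11-fold lower in ColXN617K than in Wt zones (adjusted p = 0.00145).

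Osteoblasts express Ibsp, Alpl, Mmp13 and Bglap themselves. Of 6 measured of 17 osteoblast and perichondrium markers, 2 fell in ColXN617K against Wt (Thy1, at least 4.17-fold, and Pth1r), 1 in C/X against Wt (Thy1) and 3 in C/X against Xbp1CartΔEx2 zones, among them the collagen I gene Col1a2 (-3.53 on the log2 scale) and the osteoblast gene Ifitm5 (-2.71). Their sum was 23506 to 28299 in C/X, 10594 to 19741 in ColXN617K, 34399.8 to 37274 in Xbp1CartΔEx2 and 25018 to 29514 in Wt zones. Much of it came from Pth1r, which hypertrophic chondrocytes express too. Without Pth1r it was 11196 to 13585 in C/X, 7567 to 9971 in ColXN617K, 19611 to 25637 in Xbp1CartΔEx2 and 11981 to 15087 in Wt zones. ColXN617K was lowest in both sums, though not for every gene, since Col1a2 averaged 7.99 in C/X and 8.99 in ColXN617K zones. The Thy1 call in C/X against Wt zones was lost in 9 of the 12 fits that left out 1 array (limma, adjusted p up to 0.0436). In C/X against ColXN617K zones, where Alpl rose, 0 of 6 osteoblast, 0 of 5 osteoclast and 0 of 8 endothelial markers were called. Since 5.26% of all tested probes were called there, lists this short would often hold none. The list medians were 0.56, 0.25 and 0.16 on the log2 scale, against 0.02 over all tested probes. The part of any of these cells in the results for Mmp13, Ibsp and Alpl was not tested.

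Markers of the chondrocytes themselves were called as follows. Of 7 measured of 9 hypertrophic chondrocyte markers, 4 fell in ColXN617K against Wt, 3 in C/X against Wt and 4 in C/X against Xbp1CartΔEx2 zones. Col10a1 led with -3.17 in ColXN617K against Wt, -3.08 in C/X against Wt and -2.70 in C/X against Xbp1CartΔEx2 zones on the log2 scale. The sum was 34592 to 35548 in C/X, 21911 to 23993 in ColXN617K, 50646 to 64972.5 in Xbp1CartΔEx2 and 52768 to 61946 in Wt zones, an order with C/X between ColXN617K and Wt. The bright genes Pth1r (means of 13.62 in C/X and 12.19 in ColXN617K) and Ccn2 (13.54 and 12.92) had this order. Col10a1 (8.98 and 8.90) and Ihh (10.17 and 10.28) hardly differed between these 2 genotypes, and Vegfa (9.22 and 10.49) went the other way. The list median in C/X against ColXN617K zones was 0.09. Of 11 measured of 15 markers of resting and proliferating cartilage, 1 fell in ColXN617K against Wt (Chad, -1.99), 2 in C/X against Wt and 3 in C/X against Xbp1CartΔEx2 zones. Of 6 measured of 10 erythroid markers, 5 fell in ColXN617K against Wt, 5 in C/X against Wt, 2 in Xbp1CartΔEx2 against Wt and 4 in C/X against Xbp1CartΔEx2 zones. Hbb-b2, 1 of the falls in each comparison with Wt, was detected on Wt arrays only. It was tested only because it is high there, so its falls are a description. There are 6 genes in more than 1 of the 11 lists, Pth1r, Runx2, Mef2c, Ihh, Ctsk and Mmp9.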

How the data were processed

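RNA of dissected hypertrophic zones was amplified and hybridised to 12 single-colour Illumina MouseWG-6 v2 arrays. The authors deposited linear, unnormalized intensity values and, in the same table, a detection score (headed as a p but near 1 for bright probes, so read as 1 minus p). The authors also deposited normalized log2 values, used as an alternative. Scanner software and genome build are not given in the sources used here. The neqc function of limma (version 3.58.1, under R 4.3.3) was applied to the intensities, with an offset of 16. It corrects background by normexp and then applies quantile normalization. The largest difference from the deposited log2 values was 0.0339. Probes scoring above 0.95 on at least 3 arrays were kept (12023), and the removal of poorly matching probes that the study describes was not repeated. Quantile normalization gives all arrays 1 distribution, so a shift of most genes would not be seen. A mean per genotype was fitted with lmFit and eBayes (8 residual and 4.28 prior degrees of freedom), and p-values were two-sided, adjusted by Benjamini-Hochberg over all tested probes. The interaction was the C/X minus Xbp1CartΔEx2 difference less the ColXN617K minus Wt difference. Deviations from the genotype means of arrays with the same title number correlated in every pair of C/X with ColXN617K (r of 0.366 to 0.659 over 3 pairs), and a fit of these 6 arrays with that number as a block was added after the data were seen. C/X replicate 1 also correlated with ColXN617K replicate 2 (r of 0.432), so the numbers need not be true pairs.

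Symbols came from the platform annotation, with 1 symbol for 9866 tested probes. The members and lists were chosen with earlier results of these data known. All members were named, and of each list the called genes, up to 4 per comparison by size of change, with 1 probe per gene, the brightest. In data simulated for ColXN617K against Wt on 12023 probes, 50 probes each were changed by folds of 1.5, 2, 4 and 8, with independent noise. Of these, 0, 8, 78 and 88% were recovered, with 0 of 11823 false calls. Far fewer probes were changed than the 1740 called in the real comparison, and simulated arrays did not deviate together. The rates therefore need not hold for these data. Promoter sequences are from RefSeq (GRCm38.p6). The number of arrays limits the precision.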

Additional observations from a re-analysis of the deposited data

Results flagged for a closer look

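For Alpl, the differences between zones without and with XBP1 were set side by side for mutant and normal collagen X. Its log2 difference between C/X and ColXN617K zones was 1.47 (higher on 3 of 3 C/X arrays), against 0.09 between Xbp1CartΔEx2 and Wt zones. The test of the difference between these effects gave 1.38 with an adjusted p of 0.0128 (limma), short of the 0.01 used for calls, and with scaling by array medians it was 0.57 (adjusted p = 0.485). Relative to the median of all tested probes with that scaling, -0.73, the Alpl difference was 1.29. Groups of 3 arrays are too small for a test of single outlying arrays.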

How the results depend on the processing

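The 4, 3, 0, 3 and 1 member probes called in ColXN617K against Wt, C/X against Wt, Xbp1CartΔEx2 against Wt, C/X against Xbp1CartΔEx2 and C/X against ColXN617K were the same counts without each replicate in turn (4 to 4, 3 to 3, 0 to 0, 3 to 3 and 1 to 1) and without replicate 3 of both ColXN617K and C/X. Scaling by array medians left 1 of 4 in ColXN617K against Wt, 1 of 3 in C/X against Wt, 2 of 3 in C/X against Xbp1CartΔEx2 and 0 of 1 in C/X against ColXN617K, and it moved the share of called probes that were higher to 76.4% in place of 55.6% in C/X against Wt and to 30.9% in place of 44.4% in C/X against Xbp1CartΔEx2. A spread from the genotypes compared alone left 0 of 1 in C/X against ColXN617K, and an adjusted p of 0.05 with no fold minimum gave 5 in C/X against Xbp1CartΔEx2. For the interaction, 0 became 1 without background correction, with detection on all arrays of a genotype, with trended and robust moderation, at an adjusted p of 0.05 and without the replicate 3 pair, 2 with array weights, and 0 to 1 without single replicates. The causes were not tested. Scaling by medians turned the C/X against ColXN617K difference to -0.092 and -0.085 for the Mmp13 probes and to -0.21 for the brighter Enpp1 probe, and the interaction to -0.50 for the brighter Mmp13 probe and -0.20 for Ibsp. The medians of all tested probes were then -0.30 for C/X against ColXN617K and -0.73 for the interaction. Relative to them the values were 0.21, 0.21, 0.086, 0.23 and 0.52 in the same order. Without the replicate 3 pair the C/X against ColXN617K difference was -0.03 for the dimmer Mmp13 probe and -0.0076 for the brighter Enpp1 probe. The interaction of the brighter Mmp13 probe was -0.33 without that pair, and its range without single replicates was -0.15 to 0.32. For the dimmer Mmp13 probe the interaction was 0.19 with array weights and -0.70 to 0.076 without single replicates, where its C/X against ColXN617K difference ranged from -0.20 to 0.57 and that of the dimmer Enpp1 probe from -0.40 to 0.031, and that of the brighter one from 0.078 to 0.40. The adjusted p of the Alpl interaction ranged from 1.80e-04 to 0.485 over other settings and from 0.00318 to 0.0405 without single replicates. Over all tested probes, 1740, 1410, 212, 1643, 633 and 205 were called in the 5 comparisons and the interaction, and other settings gave 796 to 3614, 305 to 3087, 8 to 858, 401 to 3166, 17 to 1809 and 1 to 2058.

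Between C/X and ColXN617K, arrays numbered alike in the titles deviated together, but C/X replicate 1 correlated more with ColXN617K replicate 2 (r of 0.432) than with ColXN617K replicate 1 (0.366). The numbers are therefore not shown to be pairs. The block by title in a fit of these 6 arrays, chosen after the data were seen, left the 1 member call and 2 of 4 calls for list genes there. In the other pairs of genotypes, r between arrays numbered alike in the titles ranged from -0.33 (Xbp1CartΔEx2 with Wt) to 0.33 (C/X with Wt). It ranged from -0.33 to 0.66 over all 18 pairs numbered alike in the titles and from -0.63 to 0.43 over 14 numbered alike in the descriptions. With the replicate block by title, Phex passed in C/X against Xbp1CartΔEx2 (log2 difference -1.57, adjusted p = 0.00563). The block by description left 1 of 3 in C/X against Wt and 2 of 3 in C/X against Xbp1CartΔEx2. Of 98 called results for list genes, 44 stayed called under median scaling, 63 with no filter and 58 with the description block, leaving out 1 array lost 1 (ColXN617K replicate 3) to 27 (C/X replicate 1), and 0 turned their sign. A block for the BeadChip was not run, since no chip number was found, and the genotypes compared alone give no interaction. The lowest detected reading, 6.90 to 7.70 by array, limits Phospho1, Phex and Bglap.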
